A study of Homo sapiens with 6 samples.

Results

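The data cover 9 genes in MKN28 cells with and without depletion of LTBP1. Their products detect double-stranded RNA, act directly on it or, for MAVS, pass the signal of its sensors on. They are the helicase sensors IFIH1 and DHX58, the endosomal receptor TLR3, the adaptor MAVS, the kinase EIF2AK2, the editing enzyme ADAR, and the oligoadenylate synthetases OAS1, OAS2 and OAS3. The members were chosen by symbol, each matched 1 row among 19960 genes of the deposited table, and all 9 were among the 12789 genes with a mean normalized count of at least 10 that were tested. MKN28 is an established human gastric adenocarcinoma line, which cell line registries list as a derivative of another gastric line. The shLTBP1 group is 3 libraries of stable cells carrying a plasmid for a short hairpin RNA against LTBP1, a gene for a latent TGF-beta binding protein, and the shSCR group is 3 libraries of stable cells carrying a scrambled control plasmid. No interferon, RNA ligand or other agent is named for either group, and the labels do not say how many hairpins, clones or separate cultures stand behind the libraries, so the p-values given here rest on differences among libraries that may be technical repeats.

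Cells recognise double-stranded RNA, a product of many viruses and of some transcripts of their own, through several arms. IFIH1 (MDA5) and RIGI bind it in the cytosol and signal through MAVS on mitochondria towards interferon genes, while TLR3 does so from endosomes through another adaptor, TICAM1. DHX58 (LGP2) is a relative that modulates both helicases and lacks their signalling domains. EIF2AK2 (PKR) phosphorylates eIF2alpha and slows translation, the OAS enzymes make an oligoadenylate messenger that leads to the breakdown of RNA, and ADAR converts adenosines to inosines, which makes the cell's own duplexes less visible to IFIH1 and EIF2AK2. Many of these genes are themselves induced by interferon, through a promoter element bound by a complex that includes STAT2 and IRF9.

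LTBP1 was at 58.3 ± 8.89 normalized counts in shLTBP1 cells and 984 ± 24.2 in shSCR cells (SD, n = 3 each), which is 5.92% of the shSCR mean. Library totals lay between 30479879 and 30941103 after the authors' normalization. The epithelial markers EPCAM, CDH1, KRT8, KRT18 and KRT19 had means of 9981 to 132120.0 in shLTBP1 cells. Their means were 18581 to 146666 in shSCR cells. EPCAM, CDH1 and KRT18 were lower in shLTBP1 cells, KRT19 was higher and KRT8 did not pass. With the median log2 fold change of the nearest tested genes on the chromosome subtracted, EPCAM, CDH1 and KRT18 stayed lower. KRT19 was then at 0.019 on the log2 scale and lost its call, and KRT8 was called lower at -0.25. Among 7 markers of blood, stromal and endothelial cells, PTPRC, CD3E, COL3A1 and PECAM1 averaged at most 1.21 normalized counts in shLTBP1 cells and at most 5.52 in shSCR cells, and VWF averaged 25.5 in shLTBP1 cells and 36.2 in shSCR cells. CD68 averaged 669 in shLTBP1 cells and 366 in shSCR cells, and COL1A1 805 in shLTBP1 cells and 1213 in shSCR cells. The part of these markers in the results below was not tested, and in bulk RNA fewer expressing cells and less RNA per cell cannot be told apart.

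The 5′ ends of 6 members are shown because they hold or lack the core of the interferon-stimulated response element and therefore give the sequence beside the changes described next. Each is 190 bases in the gene's direction, 170 before the RefSeq start and 20 from it, on GRCh38.p14. The genes and windows are OAS1 (chr12:112906792-112906981, plus strand), OAS3 (chr12:112938304-112938493, plus strand), EIF2AK2 (chr2:37156961-37157150, minus strand), IFIH1 (chr2:162318665-162318854, minus strand), TLR3 (chr4:186068986-186069175, plus strand) and MAVS (chr20:3846664-3846853, plus strand). Capitals mark matches, on either strand, to the core of the element, which is the word GAAA, any 2 bases and GAAA again, or to AACGAAAC, a word that was looked for after these sequences had been read.
OAS1: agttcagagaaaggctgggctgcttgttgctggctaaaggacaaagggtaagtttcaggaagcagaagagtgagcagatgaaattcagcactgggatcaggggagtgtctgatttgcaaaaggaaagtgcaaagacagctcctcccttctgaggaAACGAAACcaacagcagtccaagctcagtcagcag
OAS3: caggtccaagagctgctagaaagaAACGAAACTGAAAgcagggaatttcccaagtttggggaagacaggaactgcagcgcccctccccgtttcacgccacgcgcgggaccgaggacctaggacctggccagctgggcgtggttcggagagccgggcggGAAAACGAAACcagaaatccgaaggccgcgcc
EIF2AK2: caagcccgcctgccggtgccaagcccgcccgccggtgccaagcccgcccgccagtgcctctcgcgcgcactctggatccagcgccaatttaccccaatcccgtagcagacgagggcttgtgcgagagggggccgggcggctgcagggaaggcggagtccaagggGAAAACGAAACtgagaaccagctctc
IFIH1: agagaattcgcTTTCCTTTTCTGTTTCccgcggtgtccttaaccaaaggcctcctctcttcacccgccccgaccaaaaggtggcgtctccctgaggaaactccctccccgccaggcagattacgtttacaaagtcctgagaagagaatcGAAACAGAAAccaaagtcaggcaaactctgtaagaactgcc
TLR3: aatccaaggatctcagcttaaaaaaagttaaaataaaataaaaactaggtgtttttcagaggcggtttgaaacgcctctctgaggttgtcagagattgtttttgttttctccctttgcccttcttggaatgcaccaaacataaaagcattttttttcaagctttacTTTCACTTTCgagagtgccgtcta
MAVS: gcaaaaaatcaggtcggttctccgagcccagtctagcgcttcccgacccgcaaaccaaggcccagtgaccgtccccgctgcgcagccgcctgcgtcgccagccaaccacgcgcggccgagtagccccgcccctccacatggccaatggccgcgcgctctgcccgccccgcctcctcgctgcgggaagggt

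The core occurred in the promoter windows of 4 of the 7 members found in the RefSeq table, EIF2AK2, IFIH1, OAS3 and TLR3, against 3.57% of all 35116 windows of 300 bases. Here and below, members are counted by gene and the share of all windows by window. The table holds no entry for DHX58 and OAS2. OAS1 holds GAAACGAAAC, where the word GAAA repeats at a closer spacing than the pattern asks for, so it was not counted. A missing match to the pattern does not show that a gene lacks the element. In EIF2AK2 the match begins 6 bases before the start, in OAS3 12 and 143 bases before it, in TLR3 4 bases before it on the opposite strand, and in IFIH1 21 bases before it, with a further overlapping pair on the opposite strand from 159 and 153 bases before it. The longer form, in which the letters CT follow the core, was found in EIF2AK2 only, against 0.273% of all windows. AACGAAAC was looked for after the member sequences had been read, so its matches in members are no fair comparison with all windows. It was found in EIF2AK2, OAS1 and OAS3, against 0.251% of all windows, and overlaps matches to the core in EIF2AK2 and OAS3. Another word, TTCNNNGAA, the core of the gamma-activated site of interferon-gamma signalling, occurred in OAS1 and TLR3, against 7.66% of all windows. The windows of MAVS and ADAR held none of these words. Sequence outside the windows, including any other start of these genes, was not examined.

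Of the 9 genes, 6 rose in shLTBP1 cells, 1 fell and 2 did not pass (limma adjusted p under 0.05 over all tested genes). All 3 OAS genes, DHX58, TLR3 and ADAR rose, EIF2AK2 fell, and IFIH1 and MAVS did not pass. Among all tested genes 53.1% passed, 26.3% higher and 26.8% lower. The 3 libraries of each group did not overlap for 7 of the 9 genes, against 60.8% of all tested genes. Fold changes are given throughout on the log2(value + 1) scale. Their median was 0.35 over the 9 genes and 0.0038 over all tested genes.

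**Figure D1:**
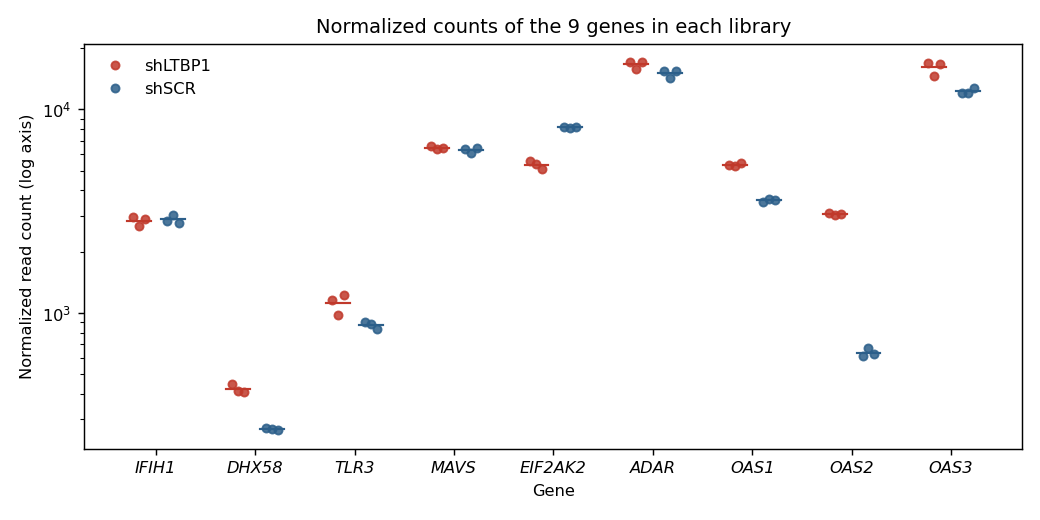
DESeq2-normalized read counts of the 9 genes in each library (log axis), shLTBP1 libraries left and shSCR libraries right for each gene, with points for libraries and lines for group means. OAS2 shows the widest separation, with 3015 to 3104 in shLTBP1 libraries and 616 to 669 in shSCR libraries, and the groups overlap for IFIH1 and MAVS.

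The oligoadenylate synthetases lie side by side on the plus strand of chromosome 12 in the order OAS1 (chr12:112906777-112933222), OAS3 (chr12:112938352-112973249) and OAS2 (chr12:112978395-113011723; hg38, GENCODE release 29). OAS2, which is active as a dimer, had normalized counts of 3104, 3015 and 3064 in shLTBP1 libraries, against 616, 669 and 628 in shSCR libraries. Every shLTBP1 library lay far above every shSCR library. The means were 3061 ± 44.4 in shLTBP1 cells and 638 ± 27.8 in shSCR cells (SD, n = 3 each), a ratio of 4.80, with a log2 fold change of 2.26 ± 0.06 (SE; limma adjusted p = 3.84e-09).

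OAS1, the smallest enzyme of the family, had 5325, 5259 and 5437 normalized counts in shLTBP1 libraries, against 3501, 3644 and 3573 in shSCR libraries. The groups did not overlap, and the libraries within each group lay close together. The log2 fold change was 0.58 ± 0.04 (SE; limma adjusted p = 3.03e-06), a ratio of means of 1.49. OAS3, the largest enzyme, which favours long duplexes, had 16887, 14495.5 and 16699.9 normalized counts in shLTBP1 libraries, against 12002, 12063 and 12751 in shSCR libraries. The second shLTBP1 library was the lowest of its group but still above the highest shSCR library. The log2 fold change of OAS3 was 0.38 ± 0.06 (SE; limma adjusted p = 0.00055).

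OAS2 had the largest log2 fold change of the 3, and its balance with the other OAS genes was compared within libraries. The log2 ratio of OAS2 to OAS1 counts averaged -0.80 ± 0.02 in shLTBP1 libraries and -2.48 ± 0.04 in shSCR libraries (SD, n = 3 each), a difference of 1.68. The log2 ratio of OAS2 to OAS3 averaged -2.38 ± 0.10 in shLTBP1 libraries and -4.26 ± 0.09 in shSCR libraries, a difference of 1.88. The ratio of OAS1 to OAS3 differed less, with a log2 ratio of -1.58 ± 0.11 in shLTBP1 libraries and -1.78 ± 0.05 in shSCR libraries, a difference of 0.20. Each ratio was separated completely between the groups. The 5 ratios compared here and in the next paragraphs were chosen after the values were seen, and for each of them an exact two-sided permutation test gave p = 0.1 (0.1 adjusted over the 5), the smallest that 3 against 3 libraries allow.

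Most tested genes around the cluster lay below the OAS genes. The 50 nearest tested neighbours of OAS2, 25 on each side over 8.29 Mb, had a median log2 fold change of 0.067, with a lowest of -1.94 and a highest of 2.36, and 49 of them lay below OAS2. Around OAS1 43 of 50 lay below it, and around OAS3 38 of 50. For each OAS gene, the neighbours and their median include the other OAS genes. Relative to the neighbours' medians, the log2 fold changes were 2.19 for OAS2, 0.49 for OAS1 and 0.29 for OAS3 (limma adjusted p = 4.67e-09, 1.41e-05 and 0.0033). An antisense transcript, AC004551.1, overlaps all 3 OAS genes on the opposite strand in GENCODE and is not analysed here, and the strand setting of the counting is not given in the sources used here.

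Against all tested genes, the cytosolic sensor DHX58 rose and IFIH1 did not pass, while relative to their neighbours' medians both were called higher, at 0.43 and 0.51. DHX58 (chr17:42101404-42112733, minus strand) had 449, 414 and 411 normalized counts in shLTBP1 libraries, against 273, 270.3 and 265 in shSCR libraries. The shSCR libraries were nearly equal, and the groups did not overlap. Its log2 fold change was 0.65 ± 0.08 (SE; limma adjusted p = 0.00012), and 0.43 once its neighbours' median of 0.22 was taken off (adjusted p = 0.0023).

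IFIH1 (chr2:162267079-162318703, minus strand) had 2962, 2674 and 2882 normalized counts in shLTBP1 libraries, against 2833, 3040.2 and 2762 in shSCR libraries. The groups overlapped, with the lowest value in a shLTBP1 library and the highest in a shSCR library. The log2 fold change was -0.020, with a 95% interval of -0.15 to 0.11 (limma adjusted p = 0.794). The log2 ratio of DHX58 to IFIH1 within libraries was -2.74 ± 0.06 in shLTBP1 libraries and -3.41 ± 0.06 in shSCR libraries (SD, n = 3 each), a difference of 0.67 that is not seen between their values relative to neighbours.

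IFIH1 lay above most of the genes next to it. Tested genes of chromosome 2 were lower as a whole in shLTBP1 cells, with a median log2 fold change of -0.56 over 852 genes. Of these, 753 lay below IFIH1 and 377 below EIF2AK2. Of its 50 nearest tested neighbours, 44 lay below it, and their median was -0.53. With that median subtracted, the log2 fold change of IFIH1 was 0.51 ± 0.06 (SE; limma adjusted p = 7.25e-05), so its call depends on whether it is set against all genes or against its neighbours.

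RIGI, the other helicase that signals through MAVS and listed in the table under its older symbol DDX58, averaged 4046 ± 208 normalized counts in shLTBP1 cells and 3926 ± 128 in shSCR cells (SD, n = 3 each; limma adjusted p = 0.515). MAVS (chr20:3846799-3876123, plus strand) had 6603, 6378 and 6429 in shLTBP1 libraries, against 6412, 6081 and 6424 in shSCR libraries. Its groups overlapped, and the log2 fold change was 0.037 with a 95% interval of -0.059 to 0.13 (limma adjusted p = 0.492). It was called higher, at 0.25, when trends with GC content and transcript length were removed (limma adjusted p = 0.00091), and lay at -0.093 relative to its neighbours' median (adjusted p = 0.102).

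TLR3 (chr4:186069152-186088069, plus strand) had 1153, 979.8 and 1220.2 normalized counts in shLTBP1 libraries, against 900.3, 882 and 832 in shSCR libraries. The second shLTBP1 library lay nearest to the shSCR libraries without overlapping them. The log2 fold change was 0.35 ± 0.09 (SE; limma adjusted p = 0.0063). TLR3 lies near the end of its chromosome, with 25 tested neighbours before it and 5 after it, and relative to their median of 0.060 it was at 0.29 (adjusted p = 0.018). Its adaptor TICAM1 fell, with 532 ± 52.4 normalized counts in shLTBP1 cells and 641 ± 25.6 in shSCR cells (SD, n = 3 each; limma adjusted p = 0.0252), a call that was lost without shLTBP1 replicate 3, shSCR replicate 1 or shSCR replicate 3 (highest adjusted p = 0.0864).

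**Figure D2:**
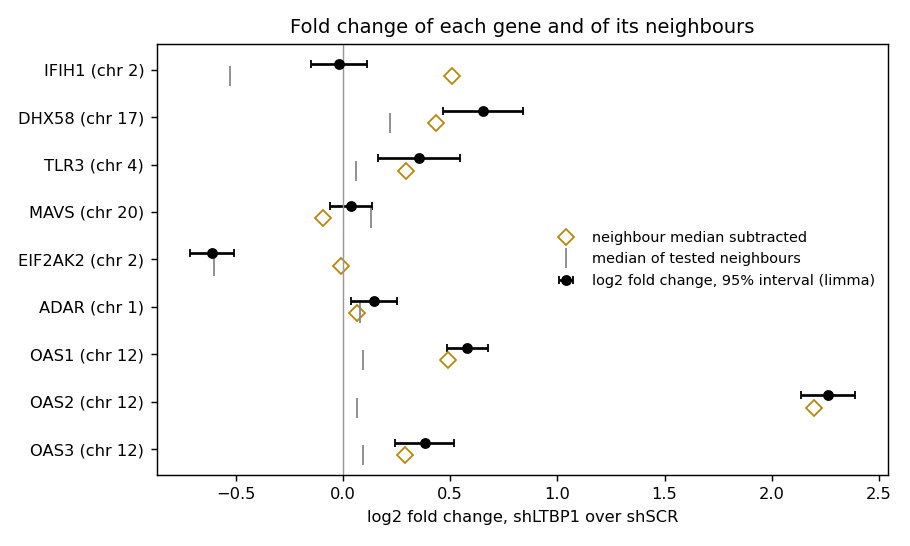
log2 fold change (shLTBP1 over shSCR) of the 9 genes with its 95% interval from limma (filled circles), the median of each gene's nearest tested neighbours on its chromosome (grey bars) and the value with that median subtracted (open diamonds). IFIH1 lies at -0.020 among neighbours at -0.53, and EIF2AK2 at -0.61 among neighbours at -0.60.

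EIF2AK2 (chr2:37099210-37157065, minus strand) was the only one of the 9 that fell. It had 5589, 5353 and 5111 normalized counts in shLTBP1 libraries, against 8195, 8119 and 8189.8 in shSCR libraries. The groups were far apart, and 65.5% of the shSCR mean remained. The log2 fold change was -0.61 ± 0.05 (SE; limma adjusted p = 3.21e-06), or -0.39 with trends in GC content and transcript length removed (adjusted p = 6.81e-05).

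Among the genes beside it, EIF2AK2 lay in the middle. Its 50 nearest tested neighbours include LTBP1 as their lowest value at -4.07 and had a median of -0.60. Of them, 25 lay below EIF2AK2 and 25 above. With this median subtracted its log2 fold change was -0.010 ± 0.045 (SE; limma adjusted p = 0.867). The end of EIF2AK2 overlaps GPATCH11 on the opposite strand, which had 521 ± 43.7 normalized counts in shLTBP1 cells and 648 ± 24.9 in shSCR cells (SD, n = 3 each).

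ADAR (chr1:154582057-154628013, minus strand) had 16973, 15788 and 16975 normalized counts in shLTBP1 libraries, against 15316, 14269.6 and 15361.5 in shSCR libraries. The groups came close to each other without overlapping. The log2 fold change was 0.15 ± 0.05 (SE; limma adjusted p = 0.0279). The call was lost without shLTBP1 replicate 1, shLTBP1 replicate 3 or shSCR replicate 2 (log2 fold changes of 0.13, 0.13 and 0.11; adjusted p = 0.0912, 0.073 and 0.116), with variances moderated without a trend (adjusted p = 0.0811) and relative to its neighbours' median (0.066, adjusted p = 0.279), and the log2 fold change was 0.30 with GC content and length trends removed. The log2 ratio of EIF2AK2 to ADAR within libraries was -1.63 ± 0.09 in shLTBP1 libraries and -0.87 ± 0.05 in shSCR libraries (SD, n = 3 each), whereas relative to their neighbours' medians the genes were at -0.010 and 0.066 and neither was called.

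**Figure D3:**
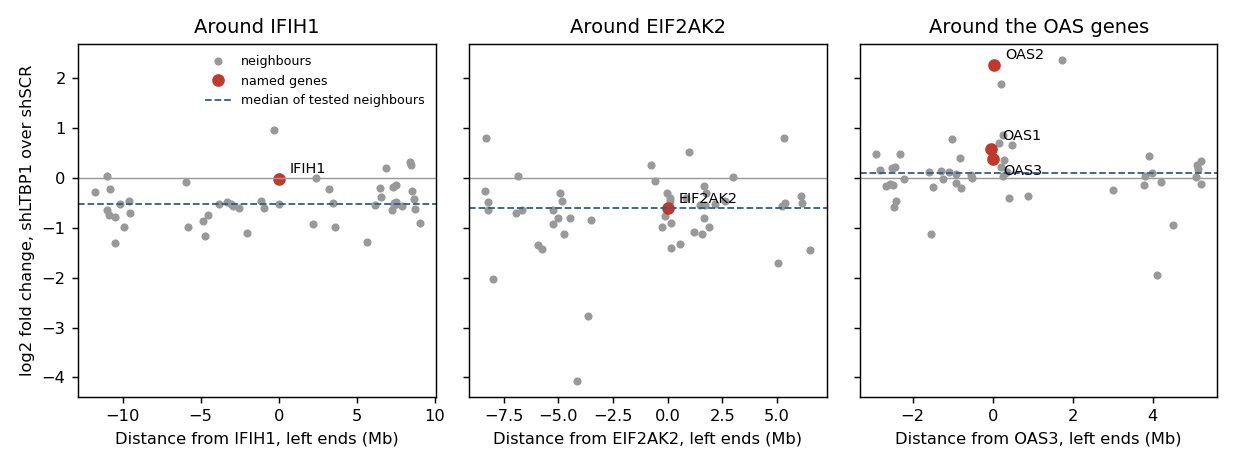
log2 fold change (shLTBP1 over shSCR) of tested genes against their distance in Mb from IFIH1, from EIF2AK2 and from OAS3, with the named genes in red, up to 25 tested neighbours on each side in grey and the median of the neighbours as a dashed line. EIF2AK2 lies on the line at -0.60, IFIH1 lies above its line at -0.53, and OAS2 lies far above its line. In the panel of OAS3 the line counts OAS1 and OAS2 among the neighbours.

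Per kilobase of the longest annotated transcript, the 9 genes spanned more than 10-fold in level. In shLTBP1 cells OAS3 stood highest at 2385 ± 198 normalized counts per kilobase, followed by ADAR at 2331 ± 96.3 and OAS1 at 2210.4 ± 37.2 (SD, n = 3), and these did not differ beyond their spread. Per kilobase of the union of exons they were apart, at 1942 for OAS3, 1711 for ADAR and 1079.5 for OAS1. By the longest transcript IFIH1 followed at 789.8 ± 41.2, OAS2 at 647 ± 9.39, MAVS at 552 ± 10.1 and EIF2AK2 at 533 ± 23.8, the last pair within their spread. TLR3 at 186 ± 20.6 and DHX58 at 162 ± 8.24 were lowest and also within their spread, against 166 and 110.5 per kilobase of the union of exons. MAVS, at 549.7 by the union, stood above OAS2 at 489.

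In shSCR cells the order of levels per kilobase was different at the top, in the middle and at the low end. ADAR stood highest at 2107 ± 86.8 (SD, n = 3), then OAS3 at 1826 ± 62.0 and OAS1 at 1479 ± 29.6. EIF2AK2 at 813 ± 4.21 and IFIH1 at 801 ± 40.2 were within their spread, and MAVS was at 538 ± 16.6. By the union of exons EIF2AK2 was at 759.6, OAS1 at 722, IFIH1 at 563 and MAVS at 536. The place of OAS1 and the order in the middle therefore depend on the length used. OAS2 stood at 135 ± 5.88, between TLR3 at 145 ± 5.92 and DHX58 at 103 ± 1.51, and did not differ from TLR3 beyond their spread.

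Genes that act with the members moved in both directions. The 7 lists described here hold 59 genes, of which 54 were tested, and 22 rose, 14 fell and 18 did not pass. Their median was 0.055 on the log2 scale, against 0.0038 for all tested genes, of which 26.3% were called higher and 26.8% lower. In the list of the oligoadenylate pathway, 1 of 3 tested genes rose and none fell. OASL, a relative of the OAS enzymes without their synthetase activity, averaged 189 ± 16.9 normalized counts in shLTBP1 cells and 92.1 ± 12.8 in shSCR cells (SD, n = 3 each; limma adjusted p = 0.00022). ABCE1, an inhibitor of the pathway, and PDE12, which degrades the messenger, had log2 fold changes of -0.18 and -0.21 and did not pass (limma adjusted p = 0.0581 and 0.0625), and both were called lower with the replicate block. ABCE1 was also called without shLTBP1 replicate 3, and PDE12 without shSCR replicate 2.

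Among RIGI and the regulators and signalling genes of the helicases and TLR3, 4 of 16 tested genes rose and 7 fell (median -0.14). Over all tested genes 26.3% rose and 26.8% fell. UNC93B1, which carries TLR3 to endosomes, rose by 0.57 on the log2 scale, the kinase TBK1 by 0.45, TKFC, an inhibitor of IFIH1, by 0.23 and the adaptor TRAF2 by 0.21. TKFC and TRAF2 lost their calls with neighbours subtracted, TRAF2 also with GC content and length trends removed, at 0.056. The falls were led by RNF125, a ubiquitin ligase that limits helicase signalling, with 95.5 ± 11.1 normalized counts in shLTBP1 cells and 239 ± 57.7 in shSCR cells (SD, n = 3 each; limma adjusted p = 0.00021). The kinase IKBKE had a log2 fold change of -0.60 and TANK, an adaptor on chromosome 2, of -0.47, or 0.050 with its neighbours subtracted. IRF3, TRIM25 and RNF135 also fell, with log2 fold changes of -0.22, -0.25 and -0.22, RNF135 losing its call without shLTBP1 replicate 2 or without any of the shSCR replicates (highest adjusted p = 0.080). IRF3 is the transcription factor at the end of this pathway, and TRIM25 and RNF135 are ubiquitin ligases that promote RIGI signalling. TRAF3 did not pass at -0.23 but was called lower with the replicate block, with neighbours subtracted and without shLTBP1 replicate 1 or shSCR replicate 2. PCBP2, TRAF6 and IRF7 did not pass, at 0.084, -0.065 and 0.086, PCBP2 being called with quantile normalization and IRF7 without shLTBP1 replicate 3, and NLRX1 was below the filter.

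**Figure D4:**
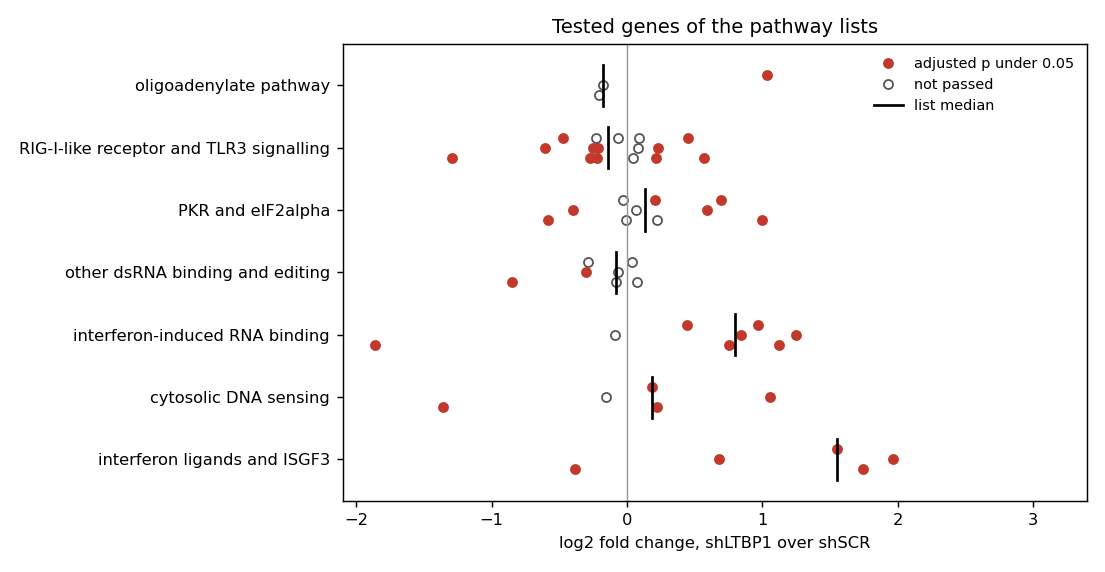
log2 fold change (shLTBP1 over shSCR) of each tested gene in the 7 pathway lists, filled where the limma adjusted p was under 0.05 and open otherwise, with the list median as a vertical bar. Interferon-induced RNA binding genes have a median of 0.80, and RIGI with the regulators and signalling genes of the helicases and TLR3 a median of -0.14.

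Around EIF2AK2 and eIF2alpha, 4 of 10 tested genes rose and 2 fell (median 0.14), against 26.3% and 26.8% of all tested genes. PPP1R15A, which directs a phosphatase to eIF2alpha, averaged 6041 ± 311 normalized counts in shLTBP1 cells and 3018 ± 52.2 in shSCR cells (SD, n = 3 each; limma adjusted p = 2.9e-07). DDIT3, a transcription factor of the stress response, rose by 0.69 on the log2 scale, EIF2AK1, another eIF2alpha kinase, by 0.59 and DNAJC3, an inhibitor of EIF2AK2, by 0.21 (0.14 and not called with neighbours subtracted). PRKRA, a protein activator of EIF2AK2, fell with a log2 fold change of -0.58, but it lies on chromosome 2 and was at -0.064 with its neighbours subtracted. EIF2AK4, a kinase that responds to amino acid shortage, fell with -0.40. EIF2AK3, a kinase of the unfolded protein response on chromosome 2, did not pass at 0.22, and was called at 0.80 with its neighbours subtracted and at 0.22 with the replicate block. PPP1R15B, a relative of PPP1R15A, did not pass at 0.067 and was called higher with neighbours subtracted, without shLTBP1 replicate 2, and after trends in GC content and length were taken out. EIF2S1, the gene of eIF2alpha itself, was at -0.0052 (limma adjusted p = 0.964). ATF4 did not pass either, at -0.029 (limma adjusted p = 0.693).

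Of 7 tested genes for other double-stranded RNA binding and editing proteins, none rose and 2 fell (median -0.078). Over all tested genes 26.3% rose and 26.8% fell. ADARB1, an editing enzyme related to ADAR, averaged 513 ± 67.8 normalized counts in shLTBP1 cells and 929 ± 170 in shSCR cells (SD, n = 3 each; limma adjusted p = 0.00046), and STAU2 had a log2 fold change of -0.31. ILF2, DHX9, STAU1, TARBP2 and DICER1 did not pass, with log2 fold changes of -0.28 to 0.072. ILF2 was called lower with neighbours subtracted, at -0.35, DICER1 lower with the replicate block and STAU1 higher with quantile normalization, at 0.12. ADARB2 was listed at 0 in all libraries, and ZBP1 averaged 1.13 in shLTBP1 cells and 1.95 in shSCR cells.

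Interferon-induced RNA binding genes were mostly higher, with 6 of 8 tested higher, 1 lower and a median log2 fold change of 0.80. The shares of all tested genes were 26.3% higher and 26.8% lower. IFIT3 averaged 1949 ± 56.8 normalized counts in shLTBP1 cells and 821 ± 58.1 in shSCR cells, and IFIT1, which binds viral RNA ends, 5332 ± 170 in shLTBP1 cells and 2443 ± 107 in shSCR cells (SD, n = 3 each; limma adjusted p = 3.99e-07 and 1.48e-07). The helicase DDX60 rose by 0.97 on the log2 scale, IFIT5 by 0.84, ISG20, an exonuclease that degrades RNA, by 0.76 and IFIT2 by 0.44. DDX60L, a near copy of DDX60 with which it may share reads, fell and was low, at 12.3 ± 7.41 in shLTBP1 cells and 45.3 ± 19.6 in shSCR cells. ZC3HAV1 did not pass, at -0.088.

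Of the interferon ligands and the complex that answers them, 4 of 5 tested genes rose and 1 fell (median 1.55). The shares of all tested genes were 26.3% higher and 26.8% lower. IRF9, the DNA-binding subunit that recognises the response element, averaged 2403 ± 237 normalized counts in shLTBP1 cells and 1493 ± 79.7 in shSCR cells (SD, n = 3 each; limma adjusted p = 5.52e-05). STAT2 fell, with a log2 fold change of -0.39. The ligand genes IFNL1, IFNL2 and IFNL3, of which IFNL2 and IFNL3 are near-identical and may share reads, averaged 34.3, 39.7 and 22.9 in shLTBP1 cells, against 10.1, 9.43 and 6.67 in shSCR cells, and IFNL3 lost its call without shLTBP1 replicate 1 or 2 (highest adjusted p = 0.0853). IFNB1, below the filter, averaged 1.35 in shLTBP1 cells and 3.44 in shSCR cells.

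The tested genes whose profile over the 6 libraries lay nearest to the mean centred log2 profile of the OAS genes were GLCE, PEX11G, DUSP1, USP12 and TNFRSF19. Their Euclidean distances from it were 0.085 to 0.097 log2 units, and their log2 fold changes were 1.02 to 1.10, against 1.07 for the OAS mean. The genes were chosen by this distance, so the likeness of their fold changes follows from the choice. The mean is not the value of any OAS gene, with OAS2 at 2.26, OAS1 at 0.58 and OAS3 at 0.38. None of the nearest genes is in the lists above.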

How the data were processed

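Total RNA of 6 MKN28 libraries, 3 shLTBP1 and 3 shSCR by sample title, was sequenced after directional MGI library preparation, per the labels' protocols. The submitters' processing notes name hg38 and the tools STAR 2.7.3a, RSEM 1.3.1, FastQC 0.10.1 and DESeq2, the last applied by the authors; no annotation, strand setting or filter is given in the sources used here. The table holds, per its name, read counts normalized by the authors with DESeq2 (a signal). They are fractional: 36.1% to 38.0% of values below 5 were whole multiples of the commonest step near 1, within 0.1, so reads were not recovered, sequenced depth is unknown and no count test was run.

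Values were tested as log2(value + 1) with limma 3.58.1 in R 4.3.3, with group as the only term. Variances were moderated with a trend (4 residual and 5.6 prior degrees of freedom). Tests were two-sided, for genes with a mean of at least 10, with Benjamini-Hochberg adjustment over 12789 genes at 0.05. The fit was also run on simulated counts with far fewer changed genes and no chromosome-wide shift. That run does not show how the fit behaves on these data. Neighbours are up to 25 nearest tested genes on each side (fewer near a chromosome end), positions and transcript lengths came from GENCODE release 29 (19872 of 19960 identifiers matched), and promoter windows from RefSeq (GRCh38.p14), 250 bases before to 50 after a start. Subtracting a median ignores its own error.

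The members and lists were chosen with earlier results of these data known; 3 further genes were left out of the lists and are not reported here. Text names all 9 genes, LTBP1, up to 4 genes that rose most and 3 that fell most per list, others needed to account for a list, and the 5 genes nearest to the OAS profile. Alternatives were other pseudocounts, filters, scalings and moderation, each library left out, the replicate block, neighbour subtraction and removal of GC and length trends.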

Additional observations from a re-analysis of the deposited data

How the results depend on the processing

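Under the 17 alternatives, OAS1, OAS2, OAS3, DHX58 and TLR3 kept their direction and their call. The number of the 9 genes past the threshold ran from 6 to 8. Scaling moved the median of all genes by at most 0.028. Leaving out 1 library at a time gave 5828 to 6532 genes past the threshold, 6 to 7 of the 9 genes, and log2 fold changes of -0.051 to 0.023 for IFIH1 and 0.11 to 0.18 for ADAR.

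With the median of neighbours subtracted, IFIH1 was at 0.51, MAVS at -0.093, EIF2AK2 at -0.010 and ADAR at 0.066; 0 of the 9 genes were then lower. The same subtraction gave RIGI -0.031, TANK 0.050, IRF7 -0.15, EIF2S1 0.094, STAU1 -0.040 and DHX9 0.041. With GC content and length trends removed, MAVS was at 0.25, IRF7 at -0.13, EIF2S1 at 0.045, TARBP2 at -0.12 and ZC3HAV1 at 0.070. Upper quartile scaling put IFIH1 at 0.00816 and EIF2S1 at 0.023. Quantile normalization put IFIH1 at 0.014, EIF2S1 at 0.017 and ATF4 at 0.026. Without the variance trend ADAR, at 0.15, lost its call. A mean of at least 50 left 2 interferon ligand and ISGF3 genes past the threshold, since the ligand genes are then not tested. The cause of the other changes was not tested. Leaving out libraries gave -0.10 to 0.0055 for TRAF6, -0.088 to 0.093 for EIF2S1, -0.094 to 0.0045 for ATF4 and -0.049 to 0.12 for TARBP2.

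The replicate block called 3 genes of the oligoadenylate pathway list, against 1 without it and 1 to 2 with 1 library left out, and changed no call among the 9 genes. The labels do not say whether the numbers of the titles pair the libraries. Deviations of same-numbered libraries correlated at -0.0093, 0.058 and -0.00074. Those of differently numbered libraries correlated at -0.040 to 0.045, so these values cannot settle it.

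Levels per kilobase, and the ties between members, depend on the length used: by the union of exons, the shLTBP1 levels were 556 for IFIH1, 110.5 for DHX58, 498 for EIF2AK2, 1711 for ADAR, 1079.5 for OAS1, 489 for OAS2 and 1942 for OAS3. The longer form of the response element core was in 1 member's promoter. Depth is unknown, so counting error, which weighs most on the low IFNL and DDX60L genes, could not be given.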

Other observations

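Genes for the sensing of DNA in the cytosol, the counterpart of the RNA sensors, moved in both directions. Of 5 tested genes 3 were higher and 1 lower, with a median log2 fold change of 0.19. Among all tested genes 26.3% were called higher and 26.8% lower. TREX1, a nuclease that removes cytosolic DNA, averaged 285 ± 42.1 normalized counts in shLTBP1 cells and 136 ± 7.67 in shSCR cells, and IFI16, a DNA sensor, 329 ± 25.3 in shLTBP1 cells and 843 ± 25.2 in shSCR cells (SD, n = 3 each; limma adjusted p = 8.6e-05 and 7.7e-07). SAMHD1, which depletes nucleotides, rose by 0.22 on the log2 scale. STING1, the adaptor of the pathway, rose by 0.19, a call lost without shLTBP1 replicate 1 or shSCR replicate 2 (highest adjusted p = 0.067) and with GC content and length trends removed. CGAS did not pass, at -0.16 (limma adjusted p = 0.116), and AIM2 averaged 4.19 in shLTBP1 cells and 0.55 in shSCR cells, below the filter.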
